A study of Mus musculus with 4 samples.

Results

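The clustered protocadherin genes of the mouse were followed here through 4 whole-genome bisulfite sequencing (WGBS) libraries of the colonic epithelium. Members were all genes on chromosome 18 whose symbol begins with Pcdha, Pcdhb or Pcdhg in the GENCODE M1 annotation of the mm9 genome build. They numbered 25 genes, 2 of the alpha, 22 of the beta and 1 of the gamma cluster, against 21418 autosomal protein-coding genes. GENCODE M1 places several of the well-known alpha and gamma genes under a single symbol, so the unit described is the annotated variable first exon. There were 41 of these, with 10 in alpha, 22 in beta and 9 in gamma. Exon counts, orders and cluster medians cover annotated exons only. Another 17 reading frames that share sequence with a first exon lay outside them and are given further on. A first exon of a shared symbol is called by its transcript name, such as Pcdha11-204 or Pcdhgc5-206, and the familiar names of these exons were not assigned. Pcdhb20 is annotated as a pseudogene. All members lay on the plus strand, with the alpha cluster at chr18:37088939-37347311, the beta cluster at chr18:37423652-37681073 and the gamma cluster at chr18:37832989-38001527 (mm9). The clusters held 3219, 2815 and 3186 CpGs.

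Clustered protocadherins are cell surface cadherins studied mainly in neurons, in which each cell transcribes a small set of them and uses the set to tell its own branches from those of other cells. In alpha and gamma, each variable first exon has its own promoter and is spliced to constant exons shared by the whole cluster, which encode a common cytoplasmic end. Beta genes are single exon genes without constant exons. Promoters of this locus are bound by the insulator protein CTCF at a short conserved element with a CGCT core, and their CpG methylation is known to go with silence. In alpha and gamma the exons next to the constant exons, called C-type, are related to each other less closely than the other exons are.

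The libraries came from mice of strain label C57, the offspring of Lgr5-EGFP-CreER knock-in mice crossed to wild-type mice. In the knock-in the green protein and CreER, a Cre recombinase gated by a drug, are made from the Lgr5 locus, a gene active in intestinal stem cells (ISCs). Lgr5-EGFP+ ISCs and EpCAM+ cells without the green protein, called differentiated cells by the study, were sorted from the colon at postnatal day 0 (P0) and day 21 (P21), the beginning and end of suckling. The differentiated gate holds every epithelial cell that lacked detectable reporter, and DNA of several animals was pooled, litters at P0 and reporter-positive offspring at P21. Whether pups without the knock-in, whose epithelial cells all lack the reporter, were left out at P0 is not stated. With 1 library in each of the 4 groups there were no replicates, so each test compares 2 libraries and not 2 conditions, and age, pool and library cannot be told apart.

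Depth was 1.02e+09 to 1.19e+09 calls, where a call is the reading of 1 cytosine in 1 read, with a median of 16 to 25 calls per covered CpG and lower values in both ISC libraries than in both differentiated ones. Start windows of 6 epithelial marker genes, such as Epcam and Vil1, had a median level of 0.865 to 2.69% in the 4 libraries. Those of 3 stem cell markers lay at 2.62 to 5.80%, 4 markers of mesenchyme at 3.37 to 6.39%, 5 markers of enteric neurons and glia at 11.9 to 15.9%, 4 immune markers at 77.1 to 79.8% and 2 endothelial markers at 71.7 to 77.4%. Of the 6 epithelial windows 4 were lower at P21 than at P0 in ISCs and 5 in differentiated cells, by medians of -0.651 and -0.731 points over the list. All 4 mesenchymal windows were higher in both populations, by medians of 0.336 and 1.19 points. Among 21122 windows of all genes, 11042 were lower in ISCs and 9852 in differentiated cells. Low start methylation does not require transcription, so these levels describe the sorts without measuring their purity.

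The methylation level, the percentage of calls read as methylated, was intermediate at nearly all protocadherin starts. In a start window, taken as 1000 bp on either side of the annotated start, the median over the 41 members was 50% (ISCs) and 49.2% (differentiated cells) at P0, then 53.3% and 51.4% at P21. The same window over all 21122 tested starts of autosomal protein-coding genes and members had medians of 14.2%, 9.67%, 14.0% and 10.3%. These windows differ in CpG number, and those of like CpG number are compared below. Of the members, 38 of 41 (92.7%) lay between 20 and 80% in ISCs at P0, where 26.2% of all start windows lay. A level is a mean over the cells and alleles of a pool, so a level near 50% does not show whether single alleles were partly methylated or mixed. Within the 41 windows a median of 41.7% of the CpGs with at least 10 calls were themselves at 30 to 70% in ISCs at P0, and the median SD of CpG levels within a window was 25.8 points. These 2 values were not taken for other genes.

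**Figure D1:**
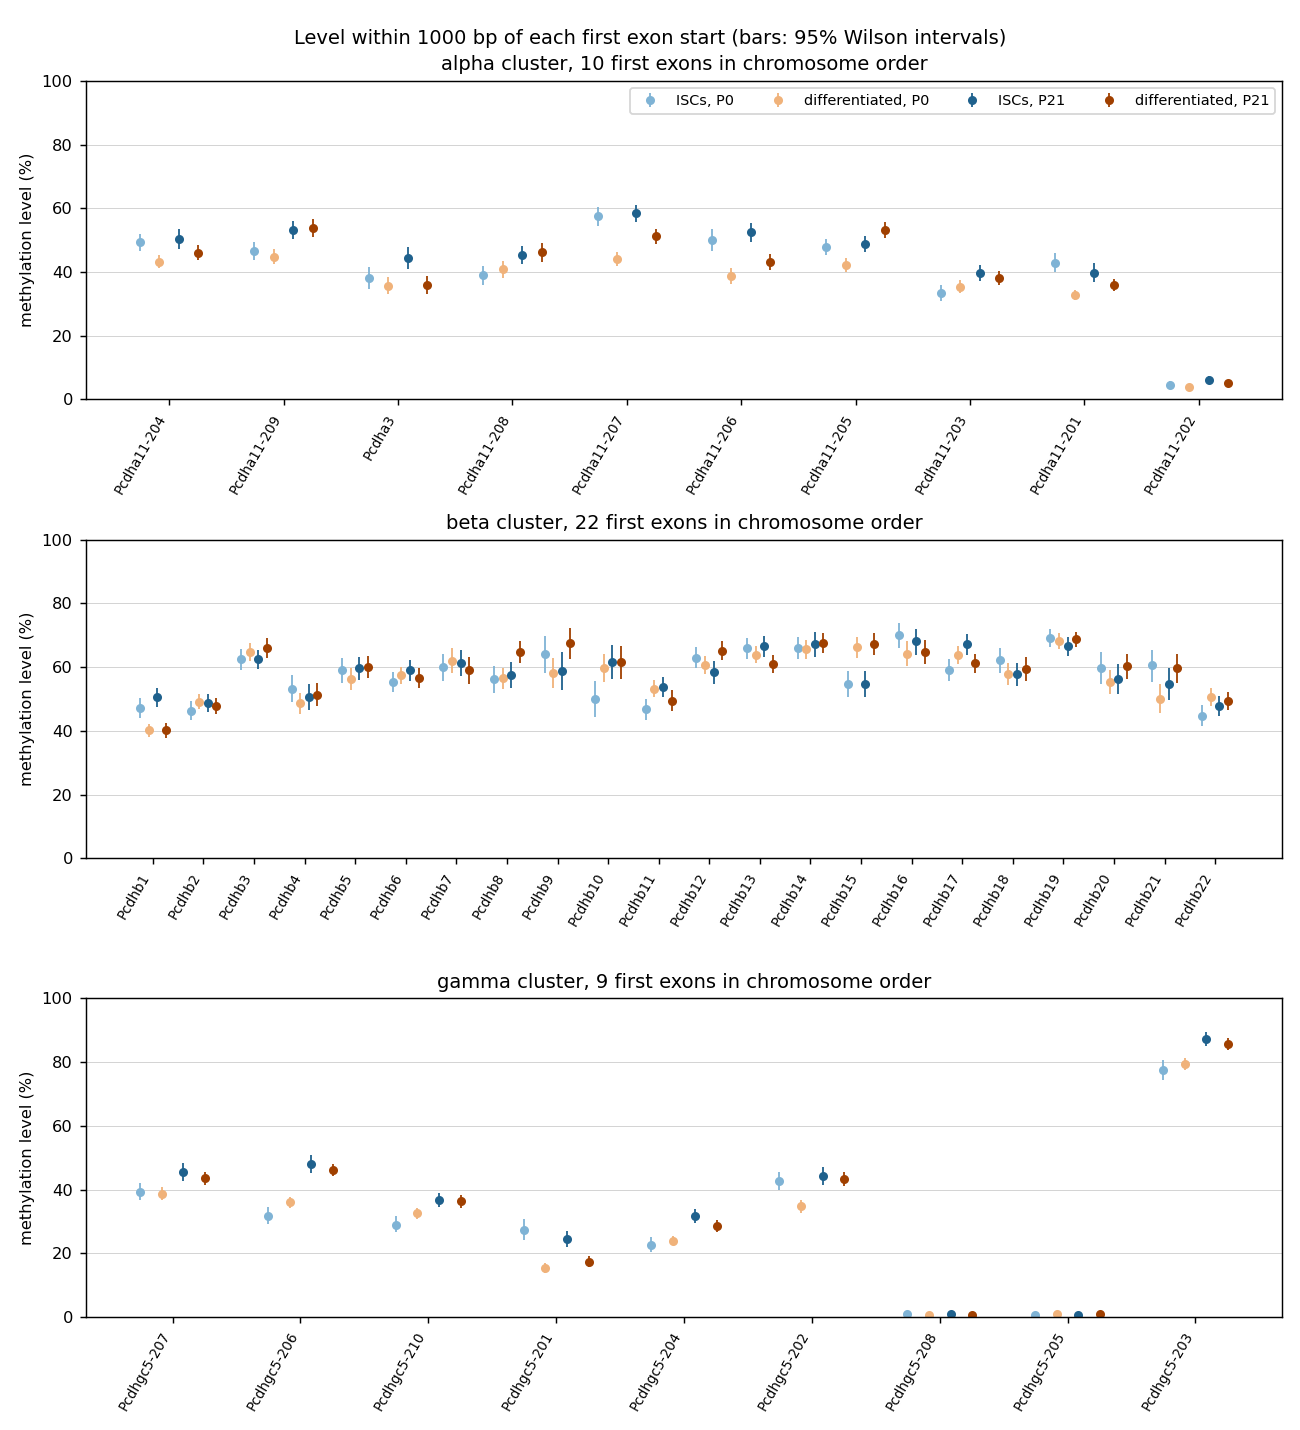
Methylation level (%) of the start window of each of the 41 variable first exons, in chromosome order within each cluster, in the 4 libraries, with bars for 95% Wilson intervals that cover counting error only. Of the 41 windows 38 lie between 20 and 80% in ISCs at P0, while Pcdha11-202, Pcdhgc5-208 and Pcdhgc5-205 lie under 10% in every library.

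The clusters differed in level. The beta genes were the highest, with medians of 59.5% (ISCs) and 58.1% (differentiated cells) at P0 and of 58.6% and 60.6% at P21, and all 22 lay between 20 and 80% in each library. The alpha exons had medians of 44.8%, 39.8%, 47.1% and 44.6% in the same order, and the gamma exons 29.0%, 32.6%, 36.6% and 36.3%. No test was made of these differences between clusters, since the exons of a cluster share libraries, depth and sequence. The annotated starts also differ in kind, as the alpha starts are start codons and the gamma starts lie 129 to 537 bp before the start codon.

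Within the alpha cluster the highest start in ISCs at P0 was Pcdha11-207 (43 CpGs), with 57.5% (ISCs) and 44.1% (differentiated cells) at P0, then 58.5% and 51.2% at P21. The first alpha exon, Pcdha11-204 at chr18:37089939-37092326, had 49.4% and 43.3% at P0 and 50.3% and 46.1% at P21. The last and lowest, Pcdha11-202 at chr18:37303623-37306184, had 4.65% and 3.98% at P0 and 6.13% and 5.22% at P21. The 95% Wilson interval of Pcdha11-202 in ISCs at P0 was 3.68 to 5.86% on 1441 calls, below those of the other 9 alpha exons, whose levels ran from 33.3 to 57.5%.

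Among the beta genes Pcdhb16 was the highest in ISCs at P0, with 70.2% (ISCs) and 64.2% (differentiated cells) at P0, then 68.1% and 64.9% at P21. Pcdhb22, the last beta gene, was the lowest in ISCs at P0, with 44.8% and 50.6% at P0 and 47.7% and 49.3% at P21. Pcdhb1, the first, had 47.2% and 40.1% at P0 and 50.5% and 40.1% at P21. The whole beta range in ISCs at P0, 44.8 to 70.2%, was narrower than that of alpha, 4.65 to 57.5%, or of gamma, 0.599 to 77.6%.

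The gamma cluster held both the lowest and the highest starts of all members, side by side at its end. Pcdhgc5-208, with its first exon at chr18:37966064-37968631, had 1.03% (ISCs) and 0.687% (differentiated cells) at P0, then 0.900% and 0.458% at P21. The next exon, Pcdhgc5-205 at chr18:37974733-37977637, had 0.599% and 0.998% at P0 and 0.542% and 0.944% at P21. Both had under 2% in every library, on 1502 to 4804 calls. The last exon, Pcdhgc5-203 at chr18:37979200-37981788, had 77.6% and 79.4% at P0 and 87.3% and 85.8% at P21, and it was the highest member in each library. The 6 annotated gamma exons before these ran from 22.7 to 42.7% in ISCs at P0, with 39.4%, 38.7%, 45.4% and 43.5% at the first of them, Pcdhgc5-207.

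These exons at the cluster ends shared little sequence with the rest. Pcdha11-201, Pcdha11-202, Pcdhgc5-208, Pcdhgc5-205 and Pcdhgc5-203 shared a median of 0.118 to 0.312% of their 12-base words with the other exons of their own cluster, against 22.3% for the alpha exon Pcdha11-204 and 1.71% for the gamma exon Pcdhgc5-206. Among annotated exons they were not alone in this, since the gamma exon Pcdhgc5-201 shared 0.176% and Pcdhb1 0.450% with the other exons of their clusters. For Pcdhgc5-201 this holds for annotated exons only. A gamma reading frame outside them, chr18:37890808-37893255, shared 22.1% of its 12-base words with Pcdhgc5-201. Pcdha11-201 did not share the low level of its neighbour, with 43.0% (ISCs) and 32.9% (differentiated cells) at P0, then 39.8% and 35.9% at P21. Among the 5, then, 3 windows were under 10% in each library and 1 was above all other members. Pcdha11-201 was in the range of the first 8 alpha exons except in differentiated cells at P0, where the lowest of those 8 had 35.4%.

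Levels were lowest near the start and were higher on both sides of it. In the 200-bp step just upstream of the start, the mean over 21 beta genes was 25.4%, 24.4%, 26.7% and 26.4% in the 4 libraries (ISCs and differentiated cells at P0, ISCs and differentiated cells at P21), and 1300 bp downstream, inside the exon, the mean over 19 of them was 77.5%, 77.2%, 78.9% and 77.4%. The same steps had 18.5%, 16.6%, 21.9% and 23.9% over 8 gamma exons and 59.8%, 59.8%, 64.5% and 65.5% over 9. In alpha they had 25.9%, 27.1%, 30.7% and 32.8%, and 62.0%, 62.3%, 64.8% and 68.6%, over 10 exons each, counted from start codons. The upstream part of the window was below the downstream part in 30 (ISCs) and 32 (differentiated cells) of 41 members at P0, and in 32 and 31 at P21. Among the beta genes, 19, 22, 20 and 19 of 22 had this order, with median levels in ISCs at P0 of 43.5% upstream and 63.7% downstream. The other clusters were mixed, with 7, 4, 6 and 6 of 10 alpha exons and 4, 6, 6 and 6 of 9 gamma exons. In differentiated cells at P0 the alpha medians were 42.5% upstream and 39.7% downstream. Over the whole first exon, which is mostly coding sequence, the median member had 60.2%, 57.8%, 61.6% and 61.6% in the 4 libraries. The first exon was above its own start window in 36, 32, 40 and 35 of 41 members. Pcdhgc5-205 showed the widest gap between start and body among the 3 starts under 10%, with a first exon level of 38.4% in ISCs at P0 against 0.599% in the start window, which overlaps it.

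**Figure D2:**
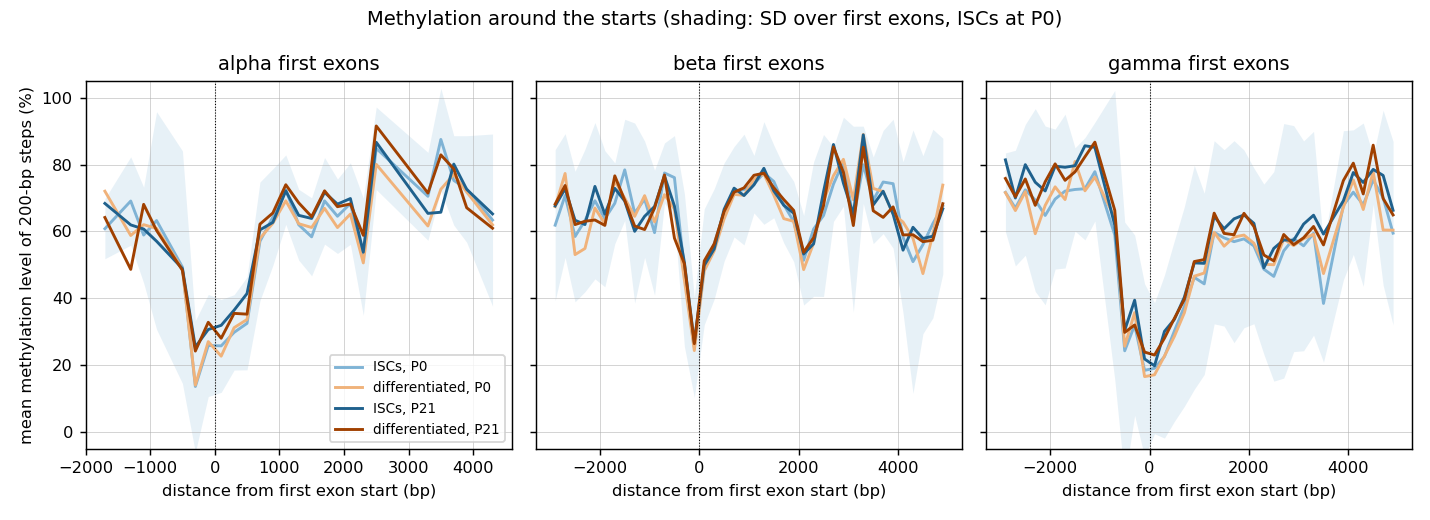
Mean methylation level (%) in 200-bp steps of distance (bp) from the first exon start in the 4 libraries, for the alpha, beta and gamma exons, with shading for the SD over exons in ISCs at P0. Each cluster has its minimum within 500 bp of the start, where alpha has 13.6% and 14.0% at P0 and 25.5% and 24.2% at P21 over 4 exons, 300 bp upstream. The next alpha step, over 10 exons, has 25.9% in ISCs at P0. Alpha distances are counted from start codons, gamma distances from starts before the start codon.

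The number of CpGs in a window went with its level across members. Windows held 11 CpGs (Pcdhb9) to 119 (Pcdha11-202 and Pcdhgc5-208), and over the 41 members Pearson's r between CpG number and level in ISCs at P0 was -0.85 and Spearman's rho -0.77, as a description of exons that share a library and a cluster. Within the 22 beta genes, which held 11 to 54 CpGs, r was -0.37. Compared with the other start windows of like CpG number, members with few CpGs were not high, as 0 of the 22 with 11 to 40 CpGs exceeded the upper quartile of the other genes. Their medians were lower than those of the other genes. The 3 members with 11 to 20 CpGs had 64.1% against 80.6%. The 10 with 21 to 30 had 59.4% against 75.8%, and the 9 with 31 to 40 had 59.2% against 64.4%. Of the 12 members with 41 to 60 CpGs, 7 exceeded the upper quartile of other genes, 40.1%, and the median of those 12 was 44.7%, that of the others 18.2%. Of the 5 with 61 to 80 CpGs, 4 exceeded the upper quartile of 15.8%, with a median of 31.8% against 8.24%, and the exception was Pcdhgc5-205. Neither of the windows with 81 to 120 CpGs did.

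**Figure D3:**
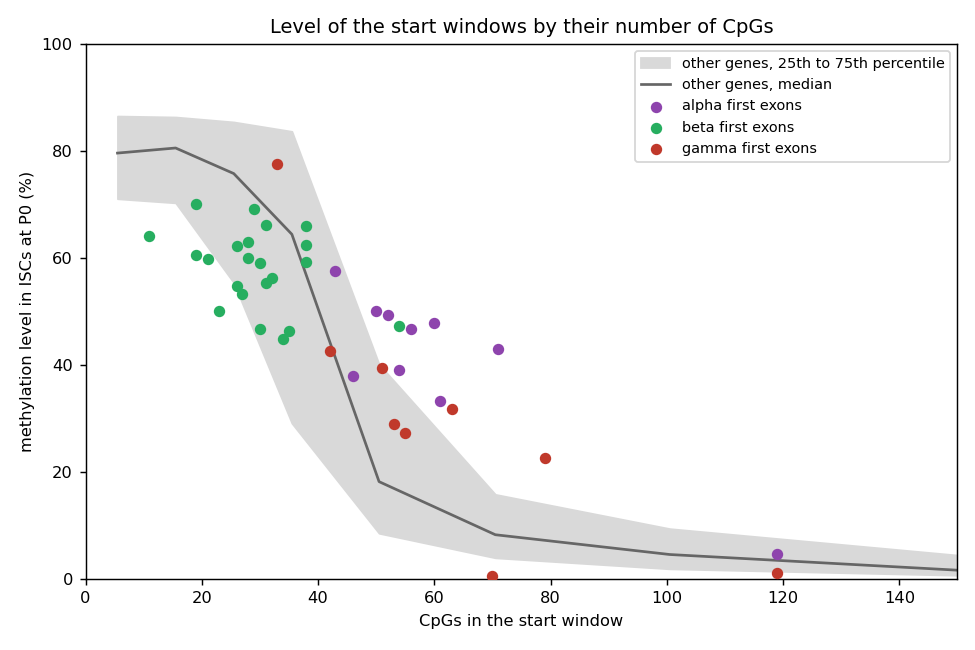
Methylation level (%) in ISCs at P0 of each member's start window against its number of CpGs, over the median and interquartile range of the other genes in classes of CpG number. Members with 41 to 80 CpGs lie mostly above the shaded range (11 of 17), and those with fewer CpGs lie within or below it.

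The core of the CTCF element, the letters CGCT on either strand, occurred within 300 bp upstream of the start in 40 of 41 members (97.6%), against 64.6% of other protein-coding genes. No other motif was searched. A match to 4 letters is a description and not a binding site, and 13 of the 41 annotated starts are start codons. The 78 CpGs inside these CGCT matches had a pooled level of 14.2% (ISCs) and 10.8% (differentiated cells) at P0, then 14.6% and 15.1% at P21. The 212 other CpGs of the same 300 bp had 29.8% and 23.7%, and 32.6% and 28.4%. These values pool 1519 to 2355 and 3831 to 6002 calls over members of unlike level, and the classes were not compared within members.

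The first comparison of the study, P21 against P0, asks how methylation matures over suckling. A window was called where the two-sided Fisher's exact test gave a Benjamini-Hochberg adjusted p below 0.05 over all 21122 windows and the difference exceeded 15 percentage points. In ISCs 1 of 41 members was called, against 1.72% of all windows. It was Pcdhgc5-206, the second annotated gamma exon, at chr18:37885360-37887970. Its level was 31.8% at P0 and 48.1% at P21, a difference of 16.3 points on 1248 and 1269 calls (adjusted p = 1.24e-14 by Fisher's exact test). In differentiated cells 0 of 41 members were called, against 1.63% of all windows, and Pcdhgc5-206 went from 36% to 46.2%, 10.2 points (adjusted p = 7.17e-13 by Fisher's exact test). The difference in ISCs was close to 15 points, as windows of 500 bp and 2000 bp gave 14.8 and 12.3 points, and calls of the plus and the minus strand alone gave 20.5 and 10.9.

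By the test alone, with no minimum difference, 11 members were higher at P21 in ISCs and 0 lower, where 9.55% of all windows were higher and 11% lower. In differentiated cells 13 were higher and 0 lower, where 14.7% of all windows were higher and 9.39% lower. Those higher in ISCs were 3 alpha, 3 beta and 5 gamma exons, and those in differentiated cells 4, 3 and 6. The gamma exons Pcdhgc5-207, Pcdhgc5-206, Pcdhgc5-210, Pcdhgc5-204 and Pcdhgc5-203 passed in both populations, as did the alpha exons Pcdha11-209 and Pcdha11-208. Pcdhgc5-204, for example, had 22.7% and 31.6% in ISCs and 23.9% and 28.6% in differentiated cells. The shares over all windows are of unlike level, as their median in ISCs at P0 was 14.2% and that of the members 50%. Windows of like level were not compared.

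Small positive differences were spread over alpha and gamma, and beta was mixed. The median difference, P21 minus P0, over the 41 members was 1.29 points in ISCs and 2.72 in differentiated cells, beside -0.08 and 0.08 over all windows. It was 1.96 and 3.69 points over alpha, 0.63 and 1.22 over beta and 6.09 and 4.72 over gamma. All windows are of lower level, with 43.3% under 10% in ISCs at P0 against 7.32% of members. Windows of like level were not compared, and autosomal CpG island bins of like level, given below, also rose in median. Alpha was higher at P21 in 9 of 10 exons in ISCs and in 10 of 10 in differentiated cells, and 9 of them were higher in both. Over the 41 members 20 were higher in both, 2 lower in both, 8 higher in ISCs alone and 11 higher in differentiated cells alone, beside 6371, 6153, 3689 and 4885 of all 21122 windows. In gamma 6 of 9 were higher in both and 2 lower in both, the latter being the starts near 0, whose differences were under 1 point. Of the 22 beta genes 5 were higher in both populations, 0 lower in both and 17 had opposite signs. These directions are counts and no test was made over exons, which share libraries.

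**Figure D4:**
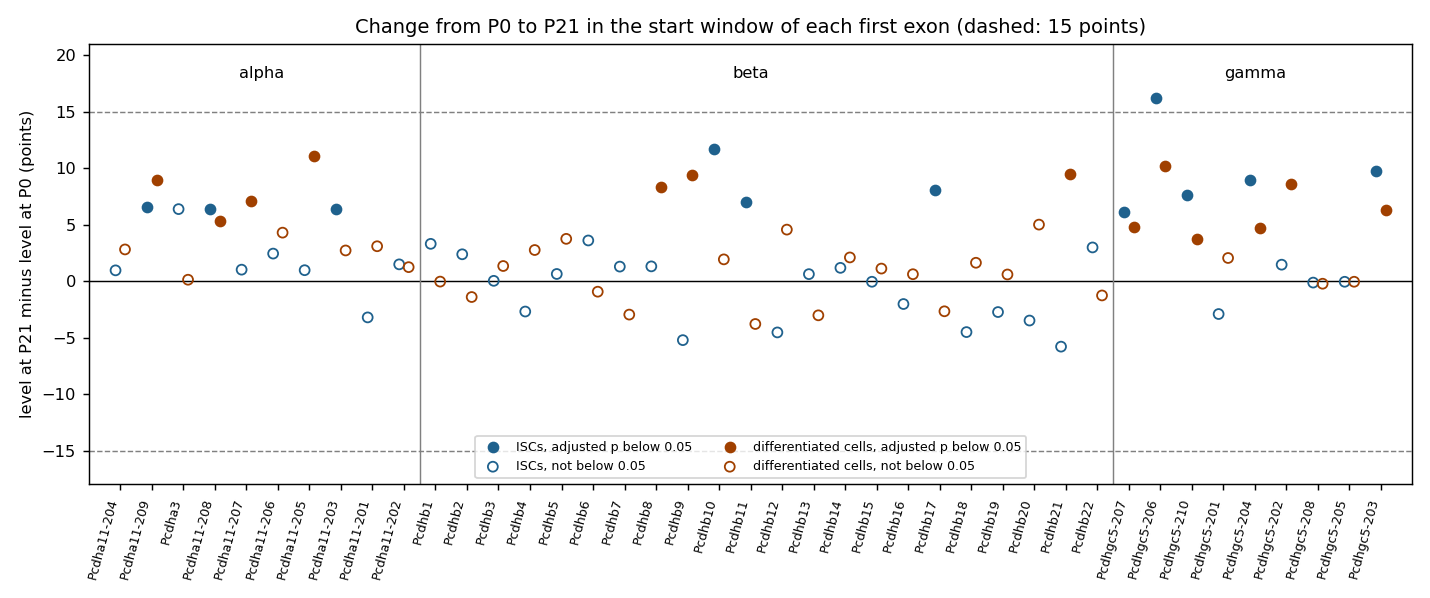
Difference in methylation level (percentage points, P21 minus P0) of the start window of each member in ISCs and in differentiated cells, with filled points for an adjusted p below 0.05 by Fisher's exact test and dashed lines at 15 points. The 11 filled points of ISCs and the 13 of differentiated cells all lie above 0, and 1 of them, Pcdhgc5-206 in ISCs, lies above 15 points.

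The whole first exons are given as a description, with no test and no share over other genes. The level at P21 was above that at P0 in 31 of 41 first exons in ISCs and in 39 of 41 in differentiated cells, with median differences of 2.21 and 3.68 points. All 9 gamma exons were higher in both populations, by 1.30 to 11.2 points in ISCs and by 0.339 to 10.8 points in differentiated cells. Of the alpha exons 8 of 10 were higher in ISCs and 10 of 10 in differentiated cells. Of the beta genes 14 of 22 were higher in ISCs and 8 lower, down to -4.24 points at Pcdhb8, and in differentiated cells 20 of 22 were higher, by a median of 2.53 points, with the lowest value of -0.40 points at Pcdhb22. The largest gains were at Pcdhgc5-206 in ISCs and Pcdhgc5-201 in differentiated cells.

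The second comparison, differentiated cells against ISCs of the same age, asks what changes on differentiation. No member was called at P0 (0 of 41, against 1.28% of all windows) or at P21 (0 of 41, against 1.02%). With no minimum difference 5 members were higher and 9 lower in differentiated cells at P0, against 3.83% and 35.9% of all windows, and 4 were higher and 7 lower at P21, against 2.93% and 31.2%. The age and the differentiation comparisons share libraries, so their values are set side by side below and not related to each other.

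Of those lower, 5 of 9 at P0 and 3 of 7 at P21 were alpha exons. The exons named next were chosen after their values were seen. Pcdha11-207, with 57.5% and 44.1% at P0, had a difference of -13.4 points (adjusted p = 3.58e-11 by Fisher's exact test), and of -7.33 points at P21 (adjusted p = 0.000658 by Fisher's exact test). Pcdha11-206 had 50.1% and 38.8% at P0 and 52.5% and 43.1% at P21, which are differences of -11.3 and -9.45 points. In gamma, Pcdhgc5-201 had 27.3% and 15.3% at P0 and 24.4% and 17.3% at P21, which are differences of -12 and -7.06 points. These 3 exons and Pcdhb1, with differences of -7.04 and -10.4 points, passed the test with no minimum difference at both ages. About 10.8% of the 100-base words of the Pcdha11-206 window occur elsewhere in the converted genome, and whether reads of related exons were placed there was not tested.

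Pcdhb15 was the member with the opposite pattern at both ages. It had 54.7% (ISCs) and 66.2% (differentiated cells) at P0, then 54.6% and 67.4% at P21, on 560 to 862 calls. The differences of 11.5 and 12.7 points had adjusted p of 5.11e-05 and 3.08e-05 by Fisher's exact test, and the Wilson intervals of both ISC libraries, 50.7 to 58.7% and 50.5 to 58.7%, did not meet those of the differentiated ones, 63.0 to 69.3% and 63.9 to 70.7%. It was below the 15 points of a call in the 1000 bp window and above them in the window of 500 bp at P21, with 15.3 points (adjusted p = 0.000188 by Fisher's exact test).

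Whether the age difference itself differed between the populations was tested with Zelen's exact test of a common odds ratio, adjusted over all windows. Of 41 members 1 was called, against 0.814% of all windows, and 5 passed with no minimum difference, against 10.6%. The call was Pcdhb21 at chr18:37673306-37677967, with 60.6% at P0 and 54.8% at P21 in ISCs and with 50.1% and 59.6% in differentiated cells. Its differences of -5.80 and 9.52 points were 15.3 points apart (adjusted p = 0.0296 by Zelen's exact test), on 19 CpGs and 355 to 443 calls. With calls thinned to equal depth the difference was 16.1 points and was no longer called (adjusted p = 0.0510 by Zelen's exact test), and in the 500 bp window it was 10.1 points (adjusted p = 0.607 by Zelen's exact test).

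Beyond the starts, the clusters and the gaps between them were read in 200-bp bins. A bin was tested if it held 2 CpGs or more and each library had 10 or more calls there, which held for 1602 of 2007 bins (79.8%). Spacers within the clusters had a median of 80.5% in ISCs at P0 and those between the clusters also 80.5%, near the 85.7% of all autosomal bins, while bins of the start windows had 51.2% and the rest of the first exons 66.7%. Bins in CpG islands, taken as 100 bp or more covered by 500-bp windows of 25 CpGs or more, stood farthest from the genome. In the clusters 417 such bins had medians of 51.5%, 50.2%, 55.7% and 56.1% in the 4 libraries, and the 155751 CpG island bins of all autosomes 2.23%, 1.99%, 2.59% and 2.25%.

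Between P0 and P21, 39 cluster bins were called in ISCs (33 gains and 6 losses) and 30 in differentiated cells (26 gains and 4 losses). These are 2.43% and 1.87% of the bins tested, beside 2.56% and 2.86% of all autosomal bins, of which 1.07% and 0.992% were gains and 1.48% and 1.86% losses. The gamma cluster held most of them, with 24 gains and 4 losses among 471 bins in ISCs and 17 and 4 in differentiated cells. Alpha had 8 gains and 2 losses among 421 bins in ISCs and 5 gains in differentiated cells. Beta had no call among 432 bins in ISCs and 4 gains in differentiated cells, and the 251 bins between the clusters that lay outside reading frames had none in either population. Between populations 5 cluster bins were called at P0, against 0.508% of all bins, and 4 at P21, against 0.182%.

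Most gains lay in CpG islands, 20 of 33 in ISCs and 18 of 26 in differentiated cells. Of the 417 CpG island bins of the clusters, 23 were called in ISCs and 18 in differentiated cells (5.52% and 4.32%), where 1.78% and 1.57% of all CpG island bins were. All CpG islands are mostly unmethylated, and those of like level are the closer comparison. Among CpG island bins whose mean over the 4 libraries was 30 to 70%, the clusters had 15 of 233 called in ISCs (6.44%) and 16 of 233 in differentiated cells (6.87%), beside 18.1% and 17.9% of the 7552 such bins of all autosomes. The median difference in those bins was 5.96 and 6.52 points in the clusters and 4.87 and 4.74 points over the autosomes. Cluster bins of this kind had more calls, with a median of 174 against 109 in ISCs at P0. In gamma 9 of 73 such bins were called in each population, in alpha 6 and 4 of 100, and in beta 0 and 3 of 59.

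Of the 33 bins that gained in ISCs and the 26 in differentiated cells, 4 were common to both, which is 12.1% and 15.4%, where the shares over all autosomal bins were 23.7% and 25.7%. No cluster bin was called in opposite directions, which was rare over all autosomal bins too, with 213 bins that gained in ISCs and lost in differentiated cells beside 10405 that gained in both, and 107 that lost in ISCs and gained in differentiated cells beside 27418 that lost in both. A bin called in 1 population was not thereby shown to differ from the other, as in the Pcdhgc5-207 bin chr18:37834201-37834400, called in ISCs, which went from 15.4% to 36.4% there and from 20.5% to 30.8% in differentiated cells. Of 6 losses in ISCs and 4 in differentiated cells, 2 were common, which is 33.3% and 50%, where the shares over all autosomal bins were 45.4% and 36.1%.

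**Figure D5:**
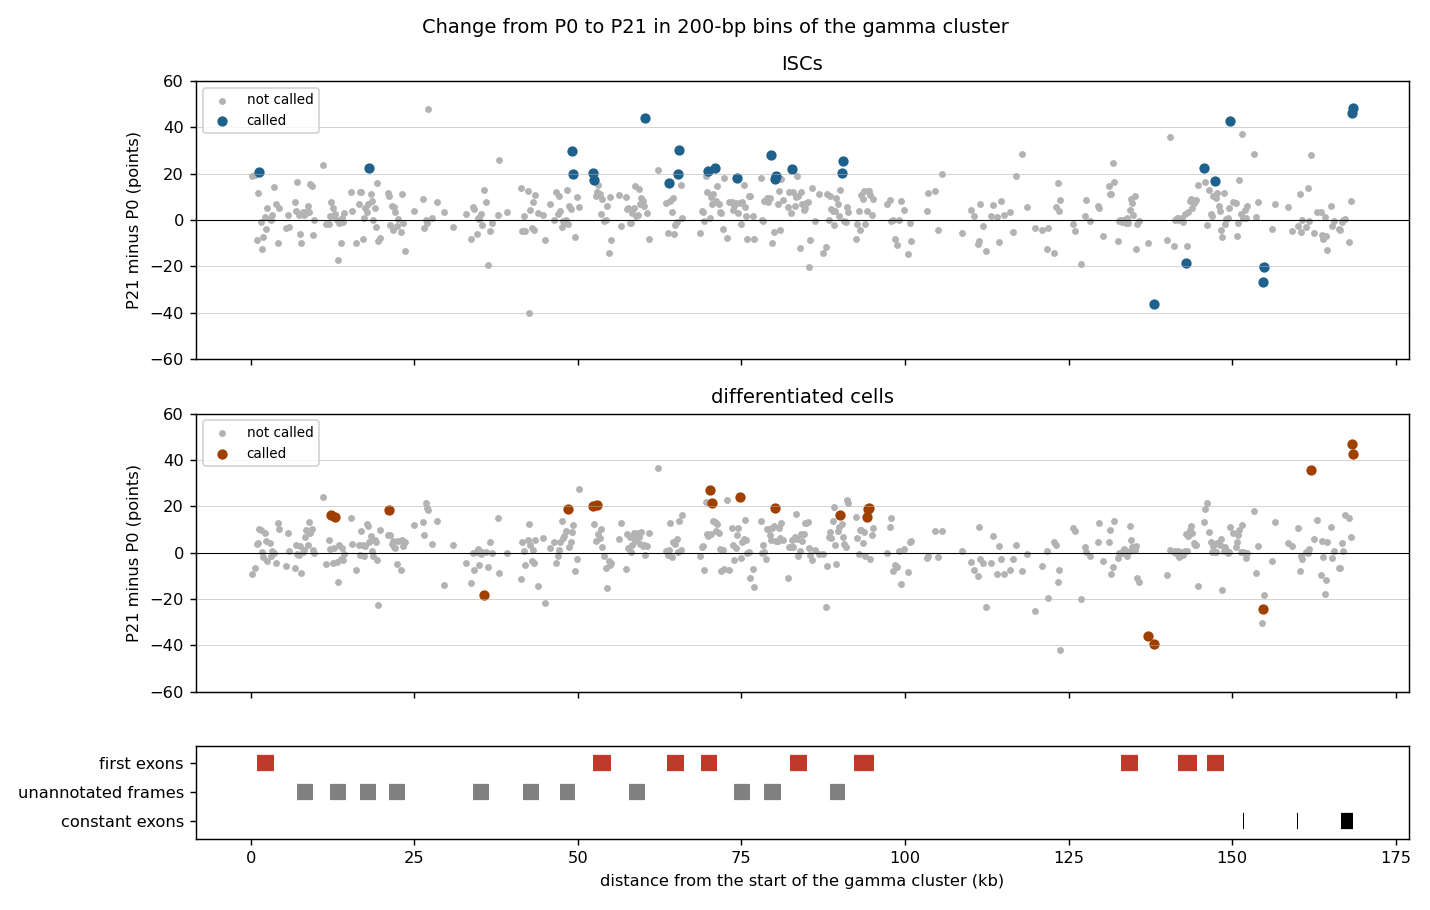
Difference in methylation level (percentage points, P21 minus P0) of each 200-bp bin of the gamma cluster in ISCs and differentiated cells, against distance (kb) from the cluster start, with called bins in colour, over the positions of first exons, reading frames outside the annotated first exons (labelled unannotated) and constant exons. The gains run through the exons of the first part of the cluster, and the highest called bin of each population lies at the end of the last constant exon.

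The gain with the largest mean difference in both populations was not at a variable exon but at the end of the gamma constant exons. The last 2 bins of gamma constant exon 3, chr18:38001201-38001600 with 20 CpGs, had 11.4% (ISCs) and 16.0% (differentiated cells) at P0, then 59.2% and 60.4% at P21. The mean difference of the bins was 47.2 points in ISCs and 44.6 points in differentiated cells, and both bins were called in both populations under each of 7 other settings for bins. The Wilson intervals at P0, 7.75 to 16.6% and 12.7 to 19.9%, lay far below those at P21, 52.6 to 65.4% and 55.1 to 65.5%. This stretch holds the annotated end of the exon and of the gamma cluster, at chr18:38001527, and runs past it. The whole exon, chr18:37999557-38001527, went from 68.5% to 76.9% in ISCs and from 54.4% to 73.5% in differentiated cells. With 500 bp on either side it went from 57.7% to 73.1% in ISCs and from 45.9% to 70.9% in differentiated cells.

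The other constant exons are given next. Alpha constant exon 3, chr18:37344600-37347311, had 69.2% and 67% at P0 and 69.6% and 67.9% at P21, although 1 of its bins, chr18:37345601-37345800, went from 63.6% to 84.7% in ISCs and was called. Gamma constant exon 1, chr18:37984675-37984733, was almost without methylation, at 0% of 75 calls in ISCs at P0 (upper 95% Wilson bound 4.87%), 1.6% of 125 in differentiated cells at P0, 0.602% of 166 in ISCs at P21 and 1.54% of 65 in differentiated cells at P21. With 500 bp on either side it had 7.87%, 8.30%, 10.3% and 12.5%. Alpha constant exon 1, of the same length, 59 bp, had 75.8%, 84%, 84.4% and 81.3% on 45 to 75 calls. Constant exon 2 of each cluster holds 1 CpG, with 10 to 45 calls, and was read with 500 bp on either side. There gamma constant exon 2 had 74.5% and 80.1% at P0 and 87.2% and 77.3% at P21, and in ISCs the Wilson intervals of 68.0 to 80.1% and 81.4 to 91.4% did not meet. Alpha constant exon 2 had 64.4% and 62.1%, and 66.3% and 59.6%.

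Losses from P0 to P21 were few, and 4 of 6 in ISCs and 4 of 4 in differentiated cells lay in gamma. The bin chr18:37971001-37971200, upstream of Pcdhgc5-205, had 40.7% (ISCs) and 45.7% (differentiated cells) at P0, then 4.35% and 6.17% at P21, on 27 to 81 calls of 2 CpGs. The pair of bins chr18:37987601-37988000, in the gamma spacer between constant exons 1 and 2, had 28.9% and 31.4% at P0 and 5.71% and 10.7% at P21. Both bins of the pair were called in ISCs, with a mean of -23.5 points, and 1 of the 2 in differentiated cells, with a mean of -21.5 points. The latter bin, chr18:37987601-37987800, was at 24.5% at P0 and at 0% of 109 calls at P21. The next losses in differentiated cells were chr18:37970001-37970200, from 94.9% to 59.1% on 39 and 22 calls, and chr18:37868601-37868800, from 79.4% to 61.2%.

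In ISCs the other 3 losses lay inside first exons or their start windows. A bin of the Pcdha11-207 start, chr18:37157601-37157800, went from 43.6% to 23.7% in ISCs, while differentiated cells had 25.2% and 24.5%. The adjoining bin, chr18:37157801-37158000, gained in ISCs, from 35.1% to 57.1%, so that the window as a whole moved by 1.02 points. The bin chr18:37975801-37976000 in the Pcdhgc5-205 first exon went from 37.2% to 18.5% in ISCs, with 17.4% and 25.3% in differentiated cells. The third, chr18:37092001-37092200 in Pcdha11-204, went from 73.2% to 55.2%, with 61.9% and 66.7% in differentiated cells.

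Runs of adjacent gained bins in ISCs were 7, each of 2 bins, and 6 of them lay in gamma. After the constant exon, the next by mean difference was in the body of Pcdhgc5-210, chr18:37898201-37898600, from 34.8% to 57.5% in ISCs and from 46.0% to 48.3% in differentiated cells. The run chr18:37885201-37885600 at the start of Pcdhgc5-206 went from 26.5% to 44.1% in ISCs and from 30.9% to 47.2% in differentiated cells. In differentiated cells the longest run, of 3 bins, lay in the body of Pcdhgc5-202, chr18:37927001-37927600, from 50.6% to 68.0%, while ISCs had 54.9% and 64.6% there. Next to it and to the constant exon in that population came 3 single bins. These were chr18:37995001-37995200 between gamma constant exons 2 and 3 (22.8% and 58.3%), chr18:37257201-37257400 in an alpha spacer (51.6% and 84.2%) and chr18:37903001-37903200 in the body of Pcdhgc5-201 (48.9% and 75.7%). A gain in ISCs, singled out after its values were seen, stood alone at chr18:37982601-37982800, between Pcdhgc5-203 and the constant exons, with 14.0% at P0 and 56.9% at P21 in ISCs and 22% and 33.1% in differentiated cells. At P21 the difference of this bin between the populations, -23.9 points in differentiated cells, was also called.

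Part of the clusters is not annotated as protocadherin exons. Of 61 open reading frames of at least 2000 bp on the plus strand of the region, 20 lay outside the first exons of GENCODE M1, and 17 of them shared over 2% of their 12-base words with a first exon. Among the 17, the frames chr18:37906842-37909319 and chr18:37911433-37913994 overlap exons of another annotated gene, Gm16882. These 17, of which 4 lay in alpha and 13 in or just before gamma, were not members. The medians of their windows were 43.4% (ISCs) and 41.9% (differentiated cells) at P0, then 46.8% and 44.3% at P21, within a range in ISCs at P0 of 17.6 to 58.0%. By cluster the medians in ISCs at P0 were 48.8% for the frames in alpha, where the members had 44.8%, and 42.4% for those on the gamma side, where the members had 29.0%. Frame windows were centred on the first ATG of the frame, gamma member windows on starts 129 to 537 bp before the start codon. The gamma members also include the 3 end exons, without which their median was 30.4%. The windows on the gamma side are therefore not alike. At P21, 15 of 17 frames were higher in ISCs and 15 of 17 in differentiated cells, by medians of 3.29 and 4.24 points. Of all 21122 start windows, whose median level was lower, 10063 and 11262 were higher. Of the 241 bins of all such frames, 12 were called in ISCs and 9 in differentiated cells (4.98% and 3.73%), beside the 2.56% and 2.86% of all autosomal bins. Frame bins had more calls, with medians of 130 (ISCs) and 268 (differentiated cells) at P0 against 55 and 81 over all autosomal bins. Among autosomal bins with at least 4 CpGs, 4.16% and 4.05% were called by age. The 2 adjacent bins of a frame upstream of Pcdhgc5-206, chr18:37882001-37882400, went from 44.1% to 69.1% in ISCs and from 47.3% to 56.7% in differentiated cells. The 2 adjacent bins chr18:37923201-37923600 of a frame upstream of Pcdhgc5-202 went from 44.2% to 65.4% in ISCs and from 53.7% to 63.9% in differentiated cells.

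Genes related to the clusters by family, control or position gave no call in any of the 4 comparisons, in which 1.72%, 1.63%, 1.28% and 1.02% of all windows were called, so that few calls would be found in lists of this size. The 11 non-clustered protocadherins, which are single genes elsewhere, had a median of 12.4% in ISCs at P0 within a range of 0.562 to 75%. Of these, Pcdh1, near gamma on chromosome 18, had 70.8% and Pcdh12 46.3%, while Pcdh7 had 0.562%. With no minimum difference 0 of the 11 were higher at P21 in ISCs and 2 in differentiated cells, where 9.55% and 14.7% of all windows were. The 16 regulators of the clusters, such as Ctcf (0.420%), the cohesin subunit Rad21 (9.97%), the chromatin protein Smchd1 (1.16%) and the DNA methyltransferase Dnmt3b (9.40%), had a median of 3.75% in ISCs at P0. Their range was 0.319 to 90.5%, with the high values at Tet2 (90.5%) and Tet1 (87.3%). The 7 partners of the cytoplasmic end, such as the kinases Ptk2 (0.189%) and Ptk2b (17.3%), had a median of 2.69%. The 8 genes inside or beside the clusters had a median of 7.96%, and among them Slc25a2, a mitochondrial carrier gene between beta and gamma, had 92.5% and Taf7, a gene of the basal transcription machinery next to it, 17.9%. Levels between 20 and 80% in ISCs at P0 were seen at 0 of these 8 neighbours, at 4 of the 11 non-clustered protocadherins (36.4%) and at 38 of the 41 members.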

How the data were processed

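The 4 tables, as deposited by the authors, gave per CpG cytosine, strand by strand, how many calls there were and how many of them were methylated, so that the unit is the count. The submitters' processing notes name Bismark, Bowtie and mm9; their versions, and whether duplicate reads were removed, were not given in the sources used here. Counts of both strands were summed, and autosomal CpGs of the mm9 reference were used with GENCODE M1. Each 200-bp bin with at least 2 CpGs, and each start window of 1000 bp on either side of the start of the transcript with the longest coding sequence, entered with at least 10 calls in all 4 libraries. First exons shorter than 500 bp were taken with the next exon. Pairs of libraries were compared with the two-sided Fisher's exact test, and the 2 age differences with Zelen's exact test, adjusted by Benjamini-Hochberg over all bins (4076373) or all windows (21122), and called at an adjusted p below 0.05 with over 15 points. Such tests treat calls as independent draws, and reads of 1 molecule and animals of 1 pool are not. Python 3.11.15, numpy 2.4.6, scipy 1.17.1, pandas 2.3.3 and matplotlib 3.10.9 were used. On simulated counts with 200 windows changed by 30 points, 94.5% were recovered with 0 false calls by Fisher's exact test in differentiated cells by age (21122 windows), and 38% of 200 bins changed by 30 points in the same comparison with 0 false calls (4076373 bins). Named items were the highest and lowest member of each cluster, the first and last, those called, and up to 5 runs of called bins per age comparison and direction; the C-type, gamma-A and gamma-B classes of that rule could not be applied, since GENCODE M1 does not name these exons. Members and lists were chosen with earlier results of these data known. DNA sequence of chromosome 18 is not reported here.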

Additional observations from a re-analysis of the deposited data

Results flagged for a closer look

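Among the 5 members whose age difference itself differed between the populations by the test, the start window of Pcdhb21 was the 1 in which it differed by over 15 points. From P0 to P21 its level went from 60.6% to 54.8% in ISCs and from 50.1% to 59.6% in differentiated cells, and these differences lay 15.3 points apart (adjusted p = 0.0296 by Zelen's exact test, over all windows). The window holds 19 CpGs and had 355 to 443 calls. The difference in ISCs alone did not pass Fisher's exact test (adjusted p = 0.290), that in differentiated cells did (adjusted p = 0.0260). With calls thinned to equal depth the adjusted p was 0.0510 by the same exact test, and in the window of 500 bp the difference was 10.1 points (adjusted p = 0.607 by the same exact test). The other 4 members that passed were Pcdha11-205 (10.1 points), Pcdhb11 (-10.8 points), Pcdhb17 (-10.7 points) and Pcdhgc5-202 (7.17 points), as differentiated cells minus ISCs.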

How the results depend on the processing

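No paired analysis was possible because each group holds 1 library, and for the same reason no library was left out in turn. The alternatives that leave out the bins of reading frames outside the annotated first exons, or the members with at least 5% repeated 100-mers, were chosen after seeing the data.

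For cluster bins, given in the order ISCs by age, differentiated cells by age, populations at P0 and populations at P21, a difference over 15 points with no test gave 224, 191, 183 and 169 bins. These are 14.0%, 11.9%, 11.4% and 10.5% of the cluster bins, near the 13.5%, 12.1%, 10.6% and 9.53% of all autosomal bins. A difference over 30 points gave 6, 6, 0 and 0 (0.375%, 0.375%, 0% and 0%), beside 1.22%, 1.06%, 0.183% and 0.0729% of all autosomal bins. Thinning the calls to the lowest library left 18 bins in differentiated cells by age (1.12%) and 0 in each comparison of the populations. The share of all autosomal bins fell too, to 1.25% in differentiated cells by age and to 0.0931% and 0.0389% between the populations at P0 and P21. Bins shifted by 100 bp gave 10 between the populations at P0 (4 higher and 6 lower in differentiated cells, where the bins as reported gave 3 and 2) and 2 at P21, and without the reading frames 2 were called at P0, both lower. Of all shifted autosomal bins 0.508% were called at P0 and 0.176% at P21, beside 0.628% and 0.126% of those in the clusters.

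For member start windows, 0 were called in ISCs by age with 500 bp, with 2000 bp, from the start codon or on the minus strand, and 2 over 10 points. Of all windows 2.42%, 1.14%, 2.09%, 2.66% and 4.09% were called under these settings. Over 10 points 2 were called in differentiated cells by age, 6 between the populations at P0 and 2 at P21. These are 4.88%, 14.6% and 4.88% of the members, beside 3.65%, 4.88% and 3.48% of all windows. With no minimum difference the counts were 11, 13, 14 and 11. The minus strand gave 2 in differentiated cells by age (Pcdha11-205 with 21.1 points and, in the opposite direction, Pcdhb16 with -19.4 points, which had 0.612 points on both strands), 1 at P0 (Pcdhb2) and 1 at P21 (Pcdhb20), and the plus strand 1 at P0 (Pcdha11-207) and 1 at P21 (Pcdhb9). The shares of all windows were 2.28%, 2.97% and 2.14% on the minus strand, and 2.98% and 2.18% on the plus strand. Windows of 500 bp gave 1 at P21 (Pcdhb15), where 0.823% of all windows were called. The test of the differing age change called 0 members with thinned calls, and with 500 bp it called Pcdhgc5-202 in place of Pcdhb21.

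The median level of the members was 41.6%, 39.0%, 43.1% and 43.5% in the 4 libraries with 500 bp and 57.6%, 55.9%, 60.4% and 61.6% with 2000 bp, since levels rise away from the start. Of the recomputed values that answer a comparison, 57 stayed within 1.5 times for a count of calls or within the 95% Wilson interval of the member nearest the median for a median level, and 41 went beyond that limit, all of which are given above. Counts of calls near 15 points rest on depth, and a bin that was not called may have changed. In the simulation 17.5% to 38% of the 200 bins changed by 30 points were recovered. Far more bins than 200 were called by age in the data, and with few changed bins the adjustment is stricter. This recovery therefore does not measure how often such a change was missed here. The end of gamma constant exon 3 was called under each of these settings for bins, and the pair of gamma bins that lost methylation was not tested where at least 4 CpGs were required and not called over 30 points.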
